A study of Mus musculus with 12 samples.

Results

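The 200 genes described here share a naming history rather than a pathway. They are mouse genes whose symbol ends in Rik, the placeholder given to genes known mainly from full-length cDNA clones of the RIKEN collection, and they were selected on their mean raw count over all 12 oocyte libraries. Of 56691 genes in the count table, 2967 carried such a symbol and 1901 of these had at least 1 count. The 200 with the highest mean held 94.7% of all counts of Rik-named genes. Because the mean count chose them, their high level is a description and is not tested. The edge of the choice was not sharp: the last 2 members, 2010110K18Rik and 4931406C07Rik, had means of 437.8 and 423.7 counts, and the next 2 genes, D930019O06Rik and 2610316D01Rik, had 422.1 and 420.8.

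RNA was sequenced from oocytes of WT mice and of Alkbh5-/- (KO) mice, in which the study removed the first exon of the gene for ALKBH5, an enzyme that takes the m6A mark off RNA. Both genotypes were C57BL/6 females about 3 weeks old, primed with the gonadotropin PMSG, and the deletion is present in every tissue of the KO, including the follicle cells around the oocyte. Oocytes were labelled GV (germinal vesicle, arrested in prophase), GVBD (germinal vesicle breakdown, meiosis resumed) and MII (metaphase II, the second arrest), and each of the 6 groups had 2 libraries, each from a small pool. GVBD and MII samples were taken by time in culture, and whether KO oocytes were chosen by the stage they had reached is not given in the sources used here, so stage reached and genotype cannot be told apart at these times.

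Libraries held between 28557742 and 40247810 counts, of which 221927 to 838409 were ERCC spike-ins, synthetic RNAs added in equal amount to each tube. All levels below are ERCC-scaled counts unless stated otherwise, meaning raw counts multiplied so that every library has the same ERCC total. Alkbh5 had 5355 to 10181 raw counts in WT and 54 to 143 in KO libraries. Oocyte markers such as Zp3 and Gdf9 summed to between 1242 and 2962 counts per 1000 ERCC counts over all groups, against 1.994 to 8.444 for 12 markers of cumulus and granulosa cells. The latter sum was higher in KO at each stage, with ranges of 5.604 to 5.898 (KO) and 3.955 to 4.345 (WT) for GV, 4.692 to 8.444 and 3.564 to 4.205 for GVBD, and 4.652 to 4.813 and 1.994 to 3.543 for MII. It came mostly from Cyp19a1 and Nr5a2, while Amhr2 was at 0 in all 12 libraries, Amh in 11 and Foxl2 in 10. Not every marker followed the sum. Inha had 46 and 123 raw counts at WT GV against 28 and 9 at KO GV, but 0 and 6 at WT GVBD against 11 and 19 at KO GVBD. Inhba ranged from 6 to 130 raw counts, with 16 and 130 at WT GV and 27 and 6 at KO GV. The part of this sum in the genotype differences given below was not tested.

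Fully grown oocytes transcribe little. They live on RNA stored during growth, and a large and selective part of that store is removed between the GV stage and MII. Long non-coding RNAs are abundant among oocyte transcripts, and many genes first seen as cDNA clones were never given a functional name. In counts from pooled cells, fewer cells of a type and less RNA per cell cannot be told apart.

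By annotation, 98 members were protein-coding and 102 were not. The non-coding group held 60 lincRNAs, 18 antisense genes, 14 processed transcripts, 3 genes of a bidirectional promoter, 2 unverified transcripts and 5 pseudogenes of 4 kinds. Protein-coding genes made up 49.0% of the members but 87.6% of the 6532 genes of the table with a mean at or above that of the lowest member. Members were also shorter and simpler than those genes, with a median exonic length of 2514 against 4076 bases and a median of 4 against 9 exons in the largest transcript. Base composition was close, at a median of 46.0% against 47.2% G or C. GGACT, a common form of the m6A motif, occurred at a median of 1.15 per 1000 bases of member transcripts and 0.97 over the wider group.

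The symbols of 61 members begin with a number that RIKEN gave to clones from adult testis libraries. Another 10 begin with E330, a group noticed after the values were seen, and these included 5 of the 12 members with the highest mean. A proper name stands in the RefSeq table for 20 members. Among them are 2410015M20Rik (Micos13, a subunit of the complex that shapes mitochondrial cristae), 1110008L16Rik (Prorp, the nuclease subunit of mitochondrial RNase P), 1810022K09Rik (Rbis, a factor of ribosome biogenesis) and D330045A20Rik (Radx, a single-stranded DNA binding protein that acts at replication forks). Another 14 had no row in that table.

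Many members lie close to or across another gene. Of the 200, 116 overlapped a gene on the opposite strand or began within 1000 bases of the start of one, and 66 shared exon bases with a gene of the opposite strand. The use of strand in counting is not given in the sources used here, so for these 66 the reads of the member and of its partner cannot be told apart where their exons overlap.

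Abundance was concentrated in few members. The 5 leading genes held 47.3% of the summed mean count of all 200 and the 12 leading genes 62.1%, while 116 members had a mean of at least 1000 and 14 of at least 10000 raw counts. E330017A01Rik stood first by raw count, by count per ERCC and by count per 1000 bases, and ranked 9 among all genes of the table. It is a protein-coding gene at chr16:58635167-58638739 (minus strand, GRCm38) that the RefSeq table names Ftdc2, for a ferritin-like domain.

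In the WT libraries E330017A01Rik had scaled counts of 300887 and 299958 (GV), 378376 and 285399 (GVBD) and 55416 and 34375 (MII). Its KO counts were 336917 and 312901 (GV), 396942 and 233100 (GVBD) and 306680 and 203364 (MII). The 2 WT MII libraries lay far below the other 10.

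E330034G19Rik and E330021D16Rik, protein-coding genes on chromosomes 14 and 6, ranked 2 and 4 and did not follow that course. E330034G19Rik had 82187 and 77553 scaled counts at WT GV and 119814 and 78145 at WT MII, and 113916 and 99590 at KO GV against 136320 and 117438 at KO MII. E330021D16Rik had 47118 and 45656 at WT GV and 65448 and 43790 at WT MII, with 75022 and 64520 at KO GV and 95123 and 65527 at KO MII. Neither passed the test between stages in either genotype.

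The third gene, 4931428L18Rik, is a protein-coding gene that shares 280 exon bases (7.46% of its own) with Lgsn on the opposite strand, and it ran from 32435 at WT MII to 137797 at KO GVBD. The processed transcript E330011O21Rik, ranked 5, differed strongly within a group: the KO MII libraries had 69513 and 14981 scaled counts. Among leaders without a coding frame, the lincRNA 1700018B24Rik is only 593 bases long and stood second per 1000 bases.

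**Figure D1:**
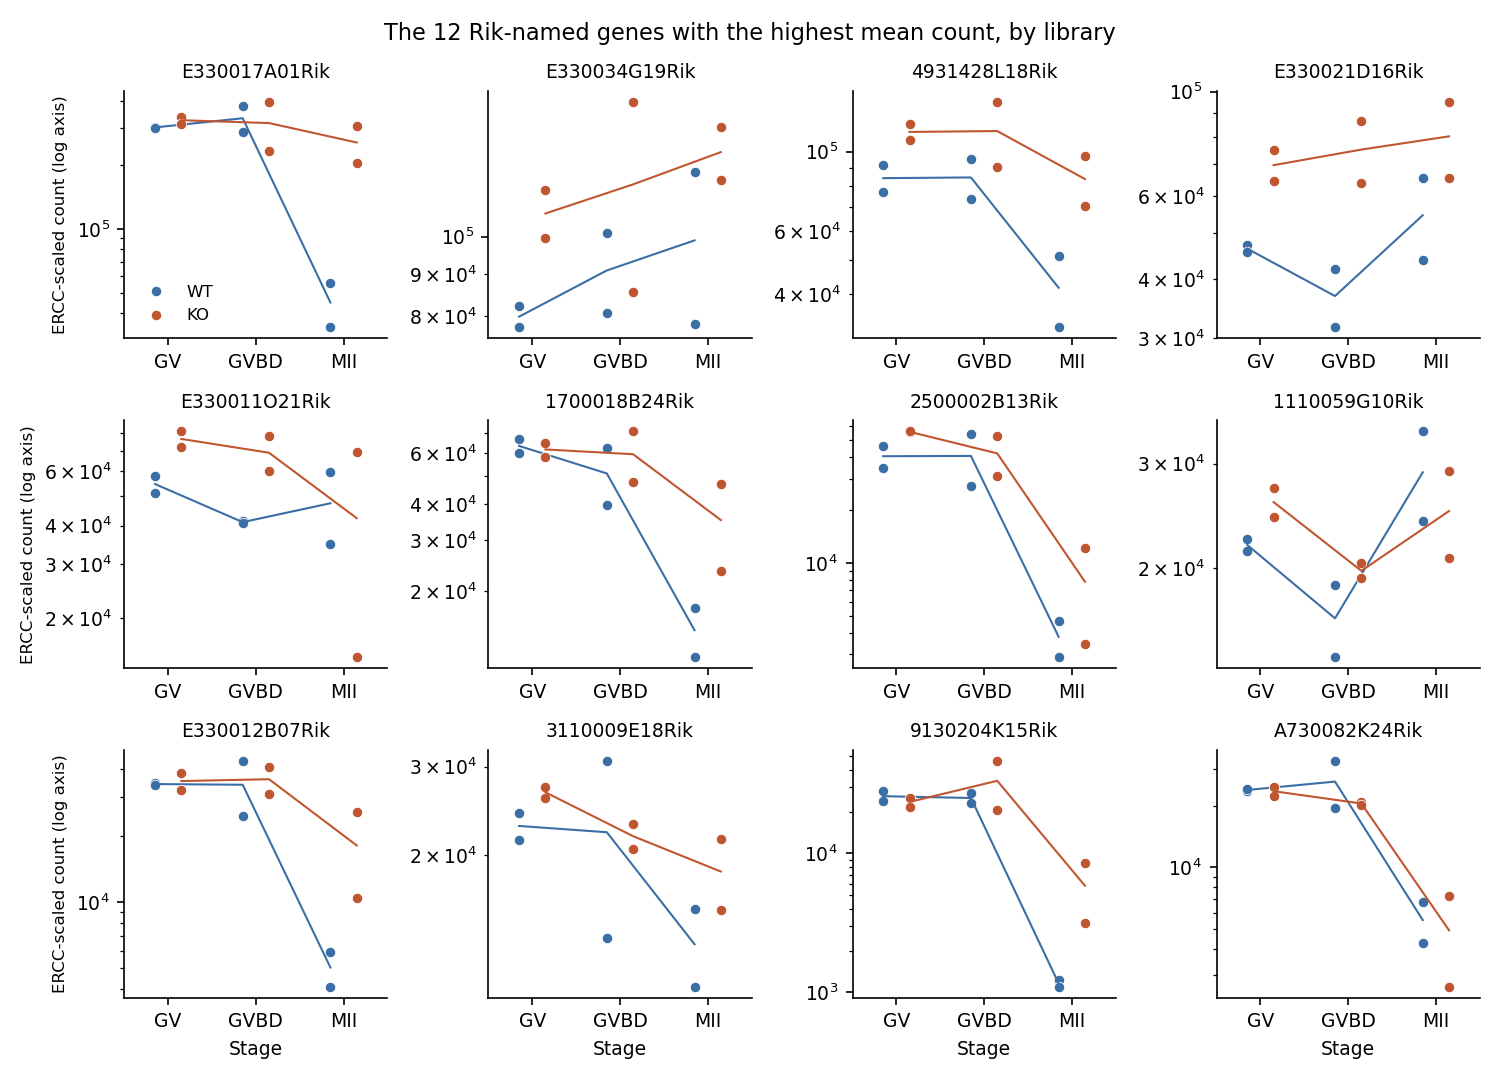
ERCC-scaled counts (log axis, its range set for each gene) of the 12 members with the highest mean count at GV, GVBD and MII, with 1 point per library and lines through the means of 2 libraries, WT in blue and KO in orange. E330017A01Rik is far below its GV level at WT MII (55416 and 34375) and closer to it at KO MII (306680 and 203364, against 336917 and 312901 at KO GV), whereas 2500002B13Rik and A730082K24Rik are low at MII in both genotypes.

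As a share of endogenous counts, which does not depend on the spike-in, the 200 members held 3.324% and 3.216% at WT GV, 3.347% and 3.536% at WT GVBD, and 2.505% and 2.485% at WT MII. The KO shares were 3.296% and 3.353% (GV), 3.558% and 3.109% (GVBD) and 3.485% and 3.461% (MII). The 2 WT MII libraries were the lowest and did not overlap any other group.

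Most of that gap came from 1 gene. E330017A01Rik alone held 0.187% and 0.181% of endogenous counts at WT MII and 0.864% and 0.921% at KO MII, and without it the other members held 2.318% and 2.304% at WT MII against 2.622% and 2.541% at KO MII. Without the 5 leading members the shares were 1.318% and 1.308% at WT MII and 1.501% and 1.324% at KO MII, below the 1.768% to 1.956% of all GV and GVBD libraries in both genotypes. Coding members held 1.680% and 1.689% at WT MII and 2.475% and 2.766% at KO MII, whereas non-coding members held 0.825% and 0.796% at WT MII and 1.01% and 0.696% at KO MII.

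**Figure D2:**
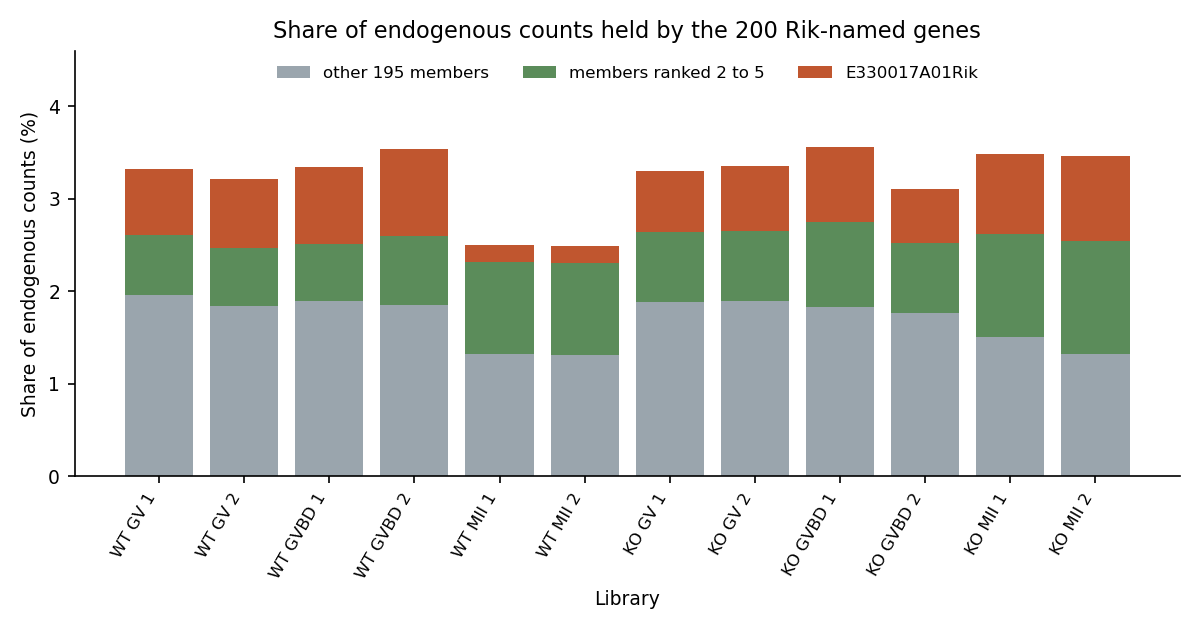
Share of endogenous counts (percent, axis from 0) held by the 200 members in each of the 12 libraries, split into E330017A01Rik, the members ranked 2 to 5 and all others. The WT MII bars end at 2.505% and 2.485% and the KO MII bars at 3.485% and 3.461%, and the E330017A01Rik segment accounts for most of the gap.

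The stage comparison asked which members fell or rose between GV and MII. In WT, 102 members fell and 1 rose under edgeR's quasi-likelihood test with Benjamini-Hochberg adjustment over all tested genes (adjusted p under 0.05 and a change of at least 2-fold). All 200 members passed the filter on low counts in this and every other comparison. Over all 18816 genes tested, 30.9% were called and 30.5% were called lower, so the 51.0% of members called lower stood above the background. The genes with a mean count as high as that of the lowest member are closer in precision: among these, 32.9% of the coding and 53.0% of the other genes were called, against 43.9% of the coding and 58.8% of the non-coding members.

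The median log2 fold change of the members in WT was -1.37, with -0.93 for coding and -2.02 for non-coding members, against -1.06 over all genes tested. A log2 fold change of -3 or less was seen in 44 members. Median-type scalings, which assume that most genes do not change, moved the median of all genes from -1.06 to -0.14 (TMM) and -0.08 (median of ratios). The calls then split as 90 lower and 23 higher under TMM and 88 lower and 26 higher under median of ratios, so that the direction of small changes depends on the use of the spike-in. Without WT GV replicate 1 or 2, 58 and 61 members were called.

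The steepest fall was that of 1700021F07Rik, a protein-coding gene of 646 exonic bases at chr2:173522586-173528501 (plus strand, GRCm38). It had scaled counts of 3161 and 1980 at WT GV, 1155 and 858 at WT GVBD, and 20.7 in both libraries at WT MII, where the raw counts were 26 and 43. The log2 fold change from GV to MII was -6.95 ± 0.65 (SE, adjusted p = 1.57e-23, edgeR).

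The next 3 were lincRNAs. 2210404E10Rik fell from 2606 and 1526 scaled counts at GV to 22 and 24 at MII (log2 fold change -6.49 ± 0.64). 4930556G22Rik went from 1927 and 1725 to 41.5 and 6.3 (-6.31 ± 0.64), and 1010001B22Rik from 2626 and 1474 to 37.5 and 29.9 (-5.93 ± 0.62). In all 3 the GV and MII libraries lay far apart and did not overlap.

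Among the 12 leading members, 6 fell in WT. Besides E330017A01Rik (-2.74 ± 0.42, adjusted p = 1.46e-09, edgeR) these were the non-coding genes 9130204K15Rik, 2500002B13Rik, E330012B07Rik, 1700018B24Rik and A730082K24Rik. 9130204K15Rik fell most, from 27934 and 23739 scaled counts at GV to 1220 and 1101 at MII (-4.48 ± 0.52). The other 6 leaders, 5 of them protein-coding, had log2 fold changes between -1.02 and 0.41 and did not pass.

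The single member that rose was 4933427D06Rik, a lincRNA at chr6:88950683-89110031 (plus strand, GRCm38). It had 5198 and 3449 scaled counts at WT GV, 2807 and 4498 at WT GVBD, and 16554 and 9419 at WT MII, with a log2 fold change of 1.59 ± 0.47 (adjusted p = 0.00415, edgeR). The MII libraries lay above all others of WT. By edgeR the call was kept without the second WT MII library (adjusted p = 0.027) and lost without the first WT MII library (0.0626), the first WT GV library (0.277) or the second (0.527). Next in order were 4931429P17Rik (0.94 ± 0.53), C920021L13Rik (0.81 ± 0.50) and E330016L19Rik (0.55 ± 0.48), none of which passed. C920021L13Rik shares 27.3% of its exon bases with BC028528 on the opposite strand.

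Of the 20 members with a proper name in RefSeq, 12 fell in WT and none rose, which is 60.0% called against 51.5% of all members and 30.9% of all genes tested. The genes described here were picked from these 20 after their values were seen. 0610037L13Rik (Czib, named for a zinc-binding motif) fell by 4.80 on the log2 scale and 2010111I01Rik (Aopep, an aminopeptidase) fell by 3.84. Micos13 fell by 3.61, 1700021F05Rik (Mtres1, a factor of mitochondrial transcription) fell by 2.84 and Prorp fell by 2.00. Rbis fell by 2.07. In contrast 3110001I22Rik (Bfar, a membrane-bound regulator of apoptosis) and 4931406P16Rik (Garre1, a Rac effector) had log2 fold changes of 0.48 ± 0.47 and 0.04 ± 0.47 and did not pass.

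In KO, 19 members fell and none rose from GV to MII. The background was 3.28% called and 3.28% called lower over 18777 genes. Of these 19, 17 were also called in WT, which is 17 of 102 from the side of WT. Of the 102 members that fell in WT, 87 had a log2 fold change of -1 or less in KO too. The median of the 102 was -2.74 in WT and -2.01 in KO, but their choice by the fall in WT itself favours a smaller median in KO. Over all 200 members the median was -1.37 in WT and -1.13 in KO, against -1.06 and -1.17 over all genes tested. The libraries KO MII replicates 1 and 2 lay further apart than those of WT (1157 and 588 for the median member), and KO MII replicate 2 had the fewest genes with a count (19837) and the only member at 0. Without KO MII replicate 1 the median member had a log2 fold change of -1.91, against -2.09 over all genes tested. Without KO MII replicate 2 these medians were -0.68 and -0.80. They were -0.98 and -0.94 without KO GV replicate 1, and -1.23 and -1.33 without KO GV replicate 2. TMM scaling gave 27 members lower and 4 higher, and 727 and 224 over all genes tested.

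2210404E10Rik and 4930556G22Rik led in KO as well, at -5.36 ± 0.94 and -5.32 ± 0.96. 1700028J19Rik, a protein-coding gene, fell from 1750 and 1958 scaled counts at KO GV to 70 and 43 at KO MII (-5.04 ± 0.77), and 4930558C23Rik from 1988 and 2119 to 94 and 36 (-4.99 ± 0.82). The 2 members called only in KO were 3110045C21Rik and E430024P14Rik. The latter had 39 raw counts in WT GV replicate 2 against 1780 in replicate 1 and had no steady WT level.

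Whether the course differed between genotypes was tested as an interaction. No member was called by edgeR (background 0.0% of 20807 genes). An unadjusted p under 0.05 was seen in 21 of the 200 members and in 1197 of the 20807 genes. Members had a median difference of 0.26 log2 units, KO minus WT, against -0.07 over all genes tested, and 121 of the 200 lay above 0. The largest difference was that of 4930548H24Rik (7.38 ± 1.11, adjusted p = 0.113, edgeR), followed in order of p by E330017A01Rik (2.39 ± 0.54, adjusted p = 0.408). Without KO MII replicate 2, 14 members were called, and without KO MII replicate 1 the median difference was -0.32.

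**Figure D3:**
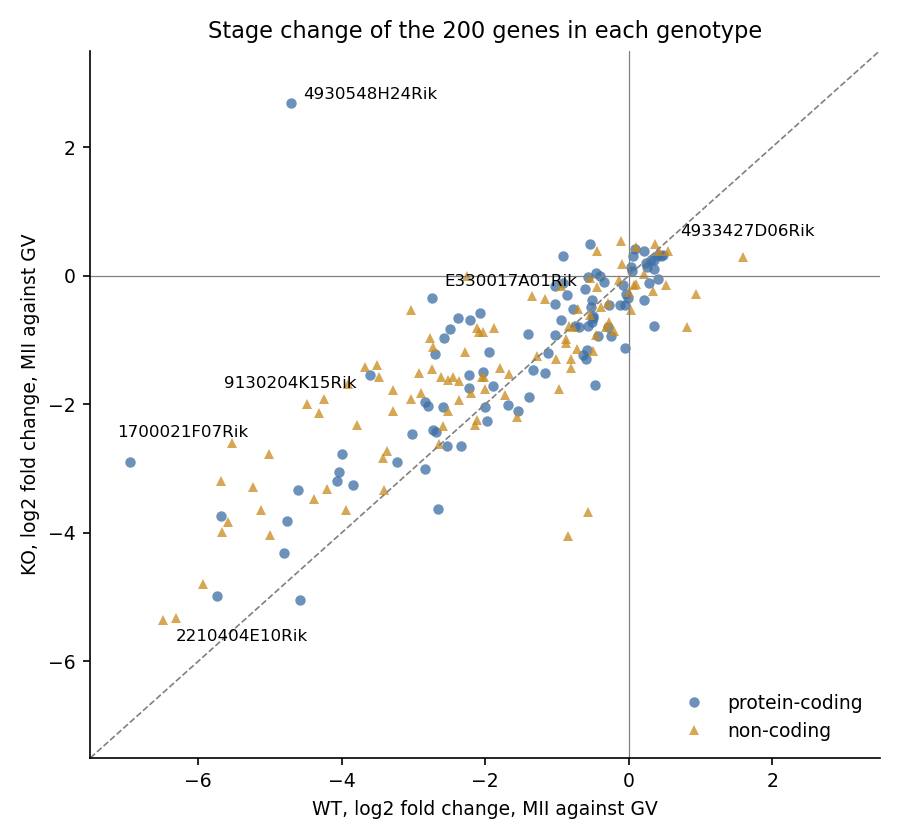
Log2 fold change from GV to MII of each of the 200 members in WT (x axis) and in KO (y axis), with protein-coding members as blue circles, non-coding members as gold triangles and the dashed line where both are equal. Most points lie in the lower left, 121 lie above the line, and 4930548H24Rik (-4.71 in WT, 2.68 in KO) stands alone at the upper left.

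Few members passed the test between GV and GVBD. In WT edgeR called 0 members (background 0.0511%). An unadjusted p under 0.05 was seen in 19 of the 200 members and in 1223 of the 19566 genes tested. DESeq2 called 7 members, and 371 of all genes tested. The median member had a log2 fold change of -0.04. In KO 1 member was called (background 0.22%), namely 4930548H24Rik, which rose by 5.32 ± 0.38 (adjusted p = 0.00118, edgeR). Its mean scaled counts were 52.5 at KO GV and 2118 at KO GVBD, against 2172 at WT GV and 2479 at WT GVBD. The same KO GV libraries gave its difference from WT at GV described below, so the rise is no separate finding. Without either KO GV library no member was called, and without KO GVBD replicate 1 or 2 the counts were 5 and 13.

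At GV, the stage before culture, 3 members differed between KO and WT, 1 higher and 2 lower in KO. Only 0.0977% of the 19452 genes tested were called, so 1.5% of the members is a larger share, but it rests on 3 genes, and all 3 share exon bases with a gene on the opposite strand. The median member was 0.24 higher in KO on the log2 scale, below the 0.36 of all genes tested, and TMM scaling moved these to -0.11 and 0. Without either WT GV library 8 members were called, and without either KO GV library 0.

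4930548H24Rik, a protein-coding gene at chr5:31485740-31488476 (plus strand, GRCm38), was almost missing from KO GV oocytes. Its raw counts were 1831 and 1540 at WT GV and 24 and 48 at KO GV. At GVBD they were 2482 and 1840 in WT and 1279 and 1936 in KO, and at MII 144 and 108 in WT and 561 and 161 in KO. KO GV was thus the only group of GV or GVBD below 1000 counts. The difference at GV was -5.35 ± 0.29 on the log2 scale (adjusted p = 0.0235, edgeR) and -0.23 ± 0.53 at GVBD, where it did not pass. The call at GV was lost without KO GV replicate 1 or 2, with an adjusted p of at most 0.182, and held without either WT GV library.

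This gene shares 1320 exon bases, 48.2% of its own, with another member, the antisense gene 4930566F21Rik. The latter had 10517 and 8772 raw counts at WT GV and 9915 and 9937 at KO GV, a log2 difference of 0.31 ± 0.21 that did not pass. Only 1 of the overlapping partners was low at KO GV. Both had fallen by MII in WT, 4930566F21Rik by 5.67 on the log2 scale.

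**Figure D4:**
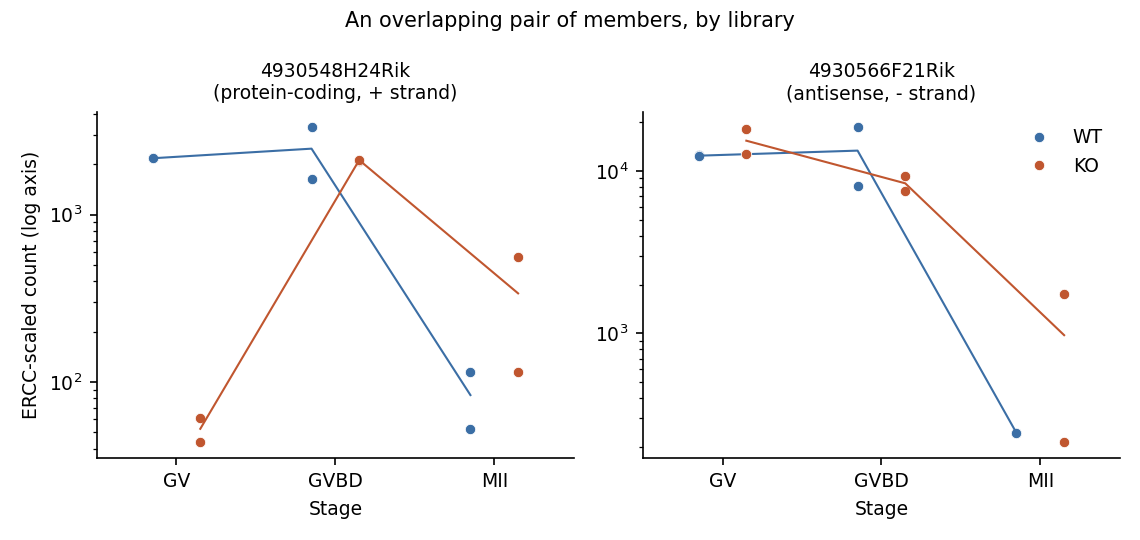
ERCC-scaled counts (log axes) of the overlapping members 4930548H24Rik and 4930566F21Rik at GV, GVBD and MII, 1 point per library, with lines through the means of 2 libraries, WT in blue and KO in orange. At KO GV 4930548H24Rik has 44 and 61 scaled counts and 2103 and 2133 at KO GVBD, while 4930566F21Rik shows no dip at KO GV.

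1700001G11Rik, a processed transcript at chr14:66295334-66297129 (minus strand, GRCm38), was low in KO from the start. Scaled counts at GV were 1304 and 1771 in WT and 180 and 131 in KO, and at GVBD 2878 and 1678 in WT and 79 and 159 in KO. At MII WT had 86 and 69 and KO 71 and 0. WT exceeded KO at GV and GVBD with no overlap, and the genotypes came together at MII, where WT had fallen. The log2 difference was -3.31 ± 0.32 at GV (adjusted p = 0.046, edgeR) and -4.25 ± 0.63 at GVBD (adjusted p = 0.000403). The calls were lost without either KO GV library (at most 0.283) and without either WT GVBD library (at most 0.166).

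It begins within 1000 bases of Trim35, a gene of the opposite strand with which it shares 99 exon bases. Trim35 had 84 and 192 raw counts at WT GV against 22 and 43 at KO GV, and at least 240 at WT GVBD against 17 and 6 at KO GVBD, a log2 difference of -4.01 there (adjusted p = 0.00564, edgeR). Whether both move by shared reads was not tested.

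The member higher in KO at GV was 3110045C21Rik, an antisense gene at chr1:169969409-169972396 (plus strand, GRCm38). It had 327 and 354 scaled counts at WT GV and 2673 and 2136 at KO GV, a difference of 2.82 ± 0.23 (adjusted p = 0.0361, edgeR), and the call was lost without either KO GV library (at most 0.203). At GVBD the groups overlapped, with mean scaled counts of 779 in WT and 1022 in KO. At MII they overlapped too, with 228 and 235 in WT and 306 and 72 in KO. It shares 90 exon bases with Ddr2, a collagen receptor gene, whose raw counts at GV were 318 and 441 in WT and 360 and 372 in KO.

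At GVBD, 4 members differed (background 2.54% of 19462 genes, 2.0% of members), which is no more than the background. Of these, 3 were higher in KO and protein-coding, and 1700001G11Rik was lower. None of the 4 was called under TMM scaling.

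1700021F07Rik had 1155 and 858 scaled counts at WT GVBD and 6975 and 5684 at KO GVBD (2.65 ± 0.54, adjusted p = 0.00894, edgeR). Micos13 had 3041 and 2389 in WT and 10757 and 10124 in KO (1.94 ± 0.52, adjusted p = 0.0472, edgeR). At GV both genotypes had between 9031 and 11674 of it, so that the 2 WT GVBD libraries lay below all 4 GV libraries. 4930432K21Rik, which encodes the meiotic recombination factor Brme1, had 481 and 257 in WT and 1401 and 1804 in KO (2.12 ± 0.56, adjusted p = 0.0456, edgeR). The Micos13 and 4930432K21Rik calls were lost without any 1 of the 4 GVBD libraries (at most 0.322 and 0.355), and that of 1700021F07Rik was held only without KO GVBD replicate 2 (0.022), with at most 0.21 otherwise.

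At MII, 3 members differed and all were higher in KO (background 0.803% of 17566 genes, 1.5% of members). The median member was 0.53 higher in KO against 0.30 over all genes tested, and 0.27 and 0 under TMM. Without KO MII replicate 1 these medians were -0.08 and -0.45, so that the sign of the members' median rests on that library. Scaled counts of 80 members did not overlap between the genotypes, which is 40.0% of the members against 32.4% of all genes tested, and 69 of the 200 did not overlap and were higher in KO, as were 22.1% of all genes tested. The shares without overlap were 62.5% of members against 51.9% of all genes at GV, and 44.0% against 48.2% at GVBD.

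1700021F07Rik had 20.7 scaled counts in both WT MII libraries, against 1185 and 149 at KO MII, a difference of 5.00 ± 1.07 (adjusted p = 0.00124, edgeR). The lincRNA 1700116B05Rik, only 414 exonic bases long, had 682 and 414 in WT and 10761 and 4208 in KO (3.77 ± 0.86, adjusted p = 0.00344, edgeR). E330017A01Rik, whose values are given above, differed by 2.51 ± 0.56 (adjusted p = 0.00256, edgeR), or 5.68 times in the means. No library of one genotype reached the other for any of the 3, and in each KO replicate 2 was the lower of its pair.

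Without KO MII replicate 2 all 3 calls held. Without KO MII replicate 1 or WT MII replicate 2 all 3 were lost, and without WT MII replicate 1 only that of E330017A01Rik remained, with highest adjusted p of 1 for 1700021F07Rik and 1700116B05Rik and 0.184 for E330017A01Rik. The number of members called was 7, 2 (both lower in KO), 0 and 1 in these leave-outs. In edgeR with TMM scaling the call of 1700116B05Rik was kept (adjusted p = 0.0461) and those of E330017A01Rik (0.0635) and 1700021F07Rik (0.0835) were lost.

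When all 12 libraries were fitted together, with a term for stage, 7 members differed between KO and WT, 5 higher and 2 lower in KO (background 1.26% of 22004 genes, 3.5% of members). The members were chosen for high counts and the background was not, so these shares are not matched for precision. When at least 10 counts were required in every library, 15 members and 821 of the 12799 genes tested were called. The larger share of members in the main fit is therefore no result about the members. TMM scaling gave 6 members higher and 5 lower. For each of the 7, every KO library lay on the same side of every WT library of its own stage. The same libraries gave the calls, so this is no separate support. It was also seen in members that were not called, among them E330021D16Rik and 1110051M20Rik.

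D330045A20Rik (Radx) was the steadiest. It had 695 and 912 scaled counts at WT GV, 822 and 639 at WT GVBD and at most 408 at WT MII. The KO libraries had 3172 and 2409 (GV), 1406 and 1228 (GVBD) and 1469 and 1524 (MII), so that the lowest KO library exceeded the highest WT library. The log2 difference was 1.65 ± 0.29 (adjusted p = 0.0156, edgeR), and the call held without any 1 of the 12 libraries (at most 0.0479) and under all 6 other settings tried.

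The lincRNA A530046M15Rik was likewise separate in all 12 libraries, with 142 to 481 scaled counts in WT and 745 to 1254 in KO (1.54 ± 0.29, adjusted p = 0.0222, edgeR). The other members higher in KO were 1700021F07Rik (2.79 ± 0.64, adjusted p = 0.0485), 1700116B05Rik (2.04 ± 0.45, adjusted p = 0.0444) and the lincRNA 6430710C18Rik (1.23 ± 0.25, adjusted p = 0.0313), again by edgeR. 1700116B05Rik had 8004 and 8468 scaled counts at WT GV and 26216 and 21768 at KO GV, so that the KO libraries lay higher before culture too, although GV alone did not pass. 6430710C18Rik ranged from 923 to 3206 in WT and from 3193 to 8468 in KO, and its call was lost under TMM (log2 difference 0.97) and median-of-ratios scaling (0.95), where it missed the fold threshold.

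Lower in KO were the antisense genes 2010309G21Rik (-1.54 ± 0.27, adjusted p = 0.0158) and E130111B04Rik (-1.30 ± 0.28, adjusted p = 0.0431), by edgeR. 2010309G21Rik had 1320 to 2749 scaled counts in WT and 463 to 1060 in KO, with no overlap. It runs across the immunoglobulin lambda locus and shares 93 exon bases, 20.3% of its own, with the constant gene Iglc3, whose raw counts were 5920 to 12578 in WT and 2403 to 5285 in KO (-1.03, adjusted p = 0.0396, edgeR). E130111B04Rik had 412 to 1802 in WT and 228 to 725 in KO. Of these 6, A530046M15Rik kept its call in 6 of 12 leave-outs of 1 library (at most 0.0695), 2010309G21Rik in 10 (all but WT MII replicate 1 and KO GVBD replicate 1, at most 0.0674), 1700116B05Rik and 6430710C18Rik in 4 (at most 0.11 and 0.116), 1700021F07Rik in 3 (at most 0.141) and E130111B04Rik in 2 (at most 0.145). Leaving out KO MII replicate 2 raised the count of members from 7 to 22, with 278 and 918 over all genes tested. Leaving out WT MII replicate 1 or KO GVBD replicate 1 lowered it to 1, with 96 and 63 over all genes tested. Without WT GV replicate 2, WT GVBD replicate 2, WT MII replicate 2, KO GV replicate 1 or KO GV replicate 2 it was 2 or 3. Over all genes tested it was then 86 to 123, so these shifts are not particular to the members.

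**Figure D5:**
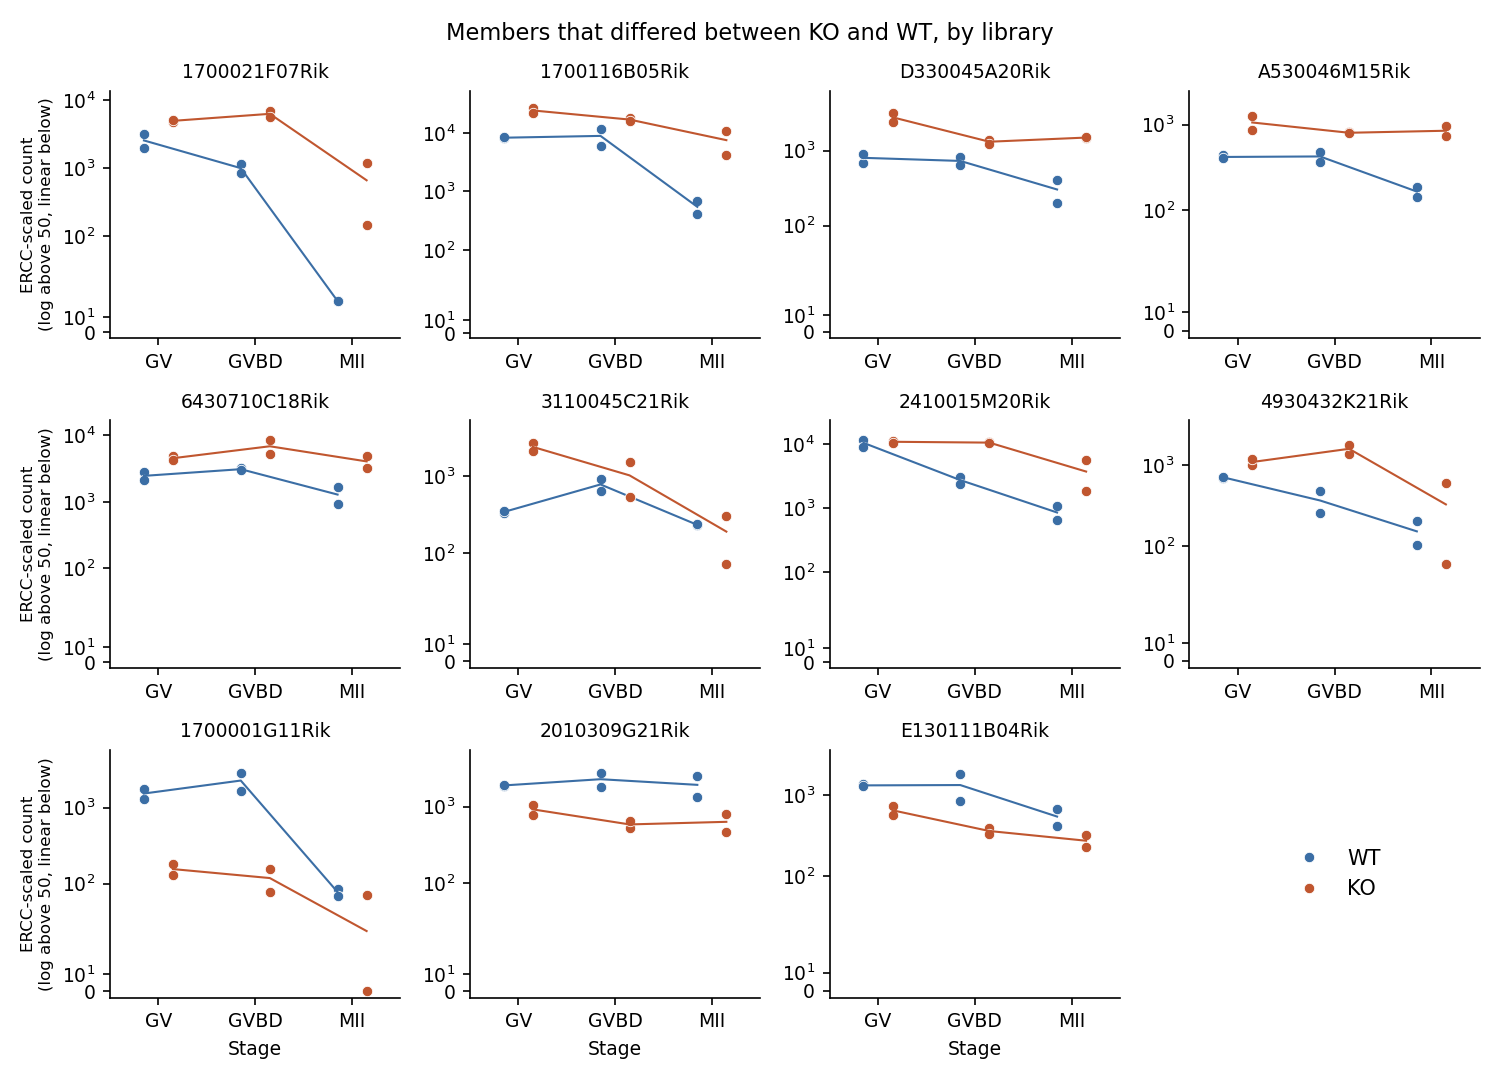
ERCC-scaled counts (logarithmic above 50 and linear below, range set for each gene) of 11 members that differed between KO and WT in at least 1 comparison, 1 point per library at GV, GVBD and MII, with lines through the means of 2 libraries, WT in blue and KO in orange. D330045A20Rik, A530046M15Rik and 2010309G21Rik are separate in all 12 libraries, whereas the genotypes come together at MII for 1700001G11Rik and already overlap at GVBD for 3110045C21Rik.

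The sequences around the start of 3 members that were higher in KO are shown because each holds the same short motif, before the start in 1700021F07Rik and D330045A20Rik and after it in 1700116B05Rik. Each window runs from 250 bases before to 50 bases after the start that RefSeq gives the gene (GRCm38.p6), 5′ to 3′ on the strand of the gene, with CACGTG, the palindromic E-box, in capitals. The windows lie at chr2:173522342-173522641 (plus) for 1700021F07Rik, chr16:50783159-50783458 (plus) for 1700116B05Rik and chrX:139480117-139480416 (plus) for D330045A20Rik.
1700021F07Rik: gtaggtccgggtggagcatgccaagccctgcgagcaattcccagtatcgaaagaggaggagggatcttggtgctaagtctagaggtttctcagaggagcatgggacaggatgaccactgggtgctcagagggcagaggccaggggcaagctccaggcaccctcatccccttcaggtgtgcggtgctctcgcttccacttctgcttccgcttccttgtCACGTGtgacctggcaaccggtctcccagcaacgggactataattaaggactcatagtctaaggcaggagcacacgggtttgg
1700116B05Rik: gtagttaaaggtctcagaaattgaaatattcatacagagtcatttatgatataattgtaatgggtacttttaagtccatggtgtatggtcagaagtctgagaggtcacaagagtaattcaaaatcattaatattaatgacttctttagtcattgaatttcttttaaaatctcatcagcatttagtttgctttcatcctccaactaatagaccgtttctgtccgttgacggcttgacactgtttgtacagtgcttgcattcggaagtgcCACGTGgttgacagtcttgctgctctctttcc
D330045A20Rik: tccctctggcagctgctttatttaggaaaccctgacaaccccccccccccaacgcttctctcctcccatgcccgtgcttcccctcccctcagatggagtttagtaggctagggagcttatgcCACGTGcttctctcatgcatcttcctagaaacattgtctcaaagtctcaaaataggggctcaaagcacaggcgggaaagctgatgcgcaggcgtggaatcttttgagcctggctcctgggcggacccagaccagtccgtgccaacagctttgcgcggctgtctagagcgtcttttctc
The motif was chosen after these windows had been read, so its presence in them is no result. Of the 13 members called in a comparison of KO with WT, 9 had a window. The motif stood in windows of 4 of these 9, namely the 3 shown and 3110045C21Rik. It was picked from those 3, so this count is no result either. Counted by window and not by gene, the motif stood in 10.6% of the 198 windows of all members. That compares with 7.15% of all 32851 windows in the RefSeq table and not with the 4 of 9 genes. The window of E330017A01Rik (Ftdc2) did not hold it. CCAAT, searched on both strands, stood in 43.4% of member windows and 37.4% of all, and TATAAA in 8.08% and 13.6%. A match is a run of letters and no sign of binding.

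The coding and non-coding members had similar medians in KO against WT over all stages, 0.34 and 0.33, and so did members with a testis clone number and the others (0.36 and 0.30), close to the 0.29 of all genes tested. From GV to MII in WT the testis group had a median of -1.68 and 33 of 61 members lower, and the others -1.28 and 69 of 139.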

How the data were processed

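Gene-level counts were deposited as 1 table for 12 libraries of mouse oocytes, 2 per genotype and stage. Per the labels, the authors used cutadapt 1.9, HISAT2 2.0.4 and StringTie 1.3.4d with the mm10 genome, and DESeq2 and edgeR are also named there. The tool that made the count values and its use of strand are not given in the sources used here. The study's methods describe amplified cDNA from small oocyte pools with ERCC spike-ins, whereas the extraction protocol in the labels describes a bulk preparation. The study calls the 2 libraries of a group biologically independent, without saying whether they came from separate animals.

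Members and gene lists were chosen with earlier results of these data known. Symbols were matched for 52073 of 56691 gene identifiers (91.9%), and positions are those of GENCODE M21 (GRCm38). Totals per library were 28557742 to 40247810 counts. Library sizes for the fits were set in proportion to the sum of the 92 ERCC sequences. In edgeR 4.0.16 (R 4.3.3), genes were filtered with filterByExpr, each comparison was fitted to its own groups (quasi-likelihood F test), and p-values were adjusted by Benjamini-Hochberg over all genes tested. A gene was called at an adjusted p under 0.05 and a change of at least 2-fold. The SE of a log2 fold change was its size divided by the square root of F. The fitting steps were tested on simulated data.

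Alternatives were TMM and median-of-ratios scaling, no filter, at least 10 counts in every library, DESeq2 1.42.0, 1 model over 12 libraries, leaving out each library and blocking on the replicate number, with crossed blocks added after seeing the data. Named were the 12 leading members, up to 4 highest and 4 lowest called members without overlap per comparison, the 4 highest from GV to MII in WT, both sides of the edge of the choice and every member of a count of 5 or fewer. Members named by their RefSeq name or as overlapping partners were chosen after their values were seen.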

Additional observations from a re-analysis of the deposited data

Results flagged for a closer look

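The members below moved in opposite directions in 2 groups under the same contrast, with every library of one group on one side and every library of the other on the opposite side. From GV to MII, 4930548H24Rik fell in WT (log2 fold change -4.71 ± 0.58) and had 2.68 ± 0.96 in KO, where it did not pass, and the difference of 7.38 gave an adjusted p of 0.113 by edgeR's interaction test. The same libraries, read as KO against WT, gave -5.35 at GV and 2.02 ± 0.98 at MII, 7.37 apart, and that difference is the one just tested in another order.

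From GV to GVBD, 3 other named members moved in opposite directions, and these differences were not tested. They come from the libraries that gave the KO against WT differences at GV and GVBD, read in another order, and are not separate findings. 1700021F07Rik had -1.35 ± 0.42 in WT and 0.34 ± 0.26 in KO, a difference of 1.70. 4930432K21Rik had -0.95 ± 0.46 in WT and 0.54 ± 0.30 in KO, a difference of 1.49. 3110045C21Rik went the other way, with 1.19 ± 0.43 in WT and -1.24 ± 0.46 in KO, a difference of -2.43. None of these 6 stage changes passed the edgeR test in its own genotype. Such opposite moves were seen in 9 of the 200 members in this contrast. Their share over all genes was not counted, so the count of 9 is no result about the members. GV and GVBD libraries did not overlap in 30.6% of all genes tested in WT and in 40.6% in KO.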

How the results depend on the processing

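Between GV and MII in WT, 103 members were called and 95 to 114 under the 7 other settings, with 58 to 124 when 1 library was left out. The other counts moved by over 1.5 times under at least 4 settings each, and the cause was not tested. Counts over all genes tested moved as well. For MII against GV in KO these were 616 in the main fit and 3068 by DESeq2. For KO against WT over all stages they were 278 and 1356. Counts of members below are therefore no result about the members alone. For KO against WT at GV (3 members called), the counts were 11 with no filter, 6 with at least 10 counts in every library, 15 by DESeq2, 0 with all 12 libraries in 1 model, and 0 to 8 with 1 library left out. At GVBD (4) they were 0 under TMM, 1 under median of ratios, 7 with no filter, 8 with at least 10 counts, 12 by DESeq2, 0 in 1 model, and 0 to 3 with 1 library left out. At MII (3) they were 1 under TMM, 0 under median of ratios, 10 by DESeq2, 6 in 1 model, and 0 to 7. Over all stages (7) they were 11 under both scalings, 20 with no filter, 15 with at least 10 counts, 20 by DESeq2, and 1 to 22. For MII against GV in KO (19) they were 31 under both scalings, 49 with no filter, 54 with at least 10 counts, 66 by DESeq2, 67 in 1 model, and 0 to 133. For GVBD against GV they were, in WT (0), 5 with no filter, 2 with at least 10 counts, 7 by DESeq2 and 0 to 2, and in KO (1), 6, 4 and 5 in that order, 0 in 1 model, and 0 to 13. For the interaction of genotype with stage (0) they were 3 under TMM, 6 under median of ratios, 5 with no filter, 3 with at least 10 counts, 4 by DESeq2, 1 in 1 model, and 0 to 14. Where a group was left with 1 library, that library was assumed to vary like the others.

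Replicate numbers are shared between groups, but no label says what a number stands for, and with 2 pairs the pairing could not be established: deviations of same-numbered libraries correlated at -0.22 (GV), 0.14 (GVBD) and -0.19 (MII) across genotypes over 13273 genes. With the replicate block the counts of members were 0 at GV, 2 at GVBD, 0 at MII, 15 over all stages, 103 and 50 for MII against GV in WT and KO, 2 and 1 for GVBD against GV, and 0 for the interaction. Over all genes tested they were 0 at GV, 214 at GVBD, 4 at MII and 673 over all stages. For MII against GV they were 4973 and 2462 in WT and KO, and for GVBD against GV 182 and 16. A crossed pairing, added after seeing the data, gave 5 members at GV and 0 at MII, with 218 and 0 over all genes tested.

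With 2 libraries per group, 1 library can make or end a genotype call at a single stage. Ranking by counts per ERCC count kept 98.0% of the 200 members, and ranking by share of endogenous counts kept 99.5%.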

Other observations

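The annotation of coding status was not settled for some members. The RefSeq table lists 7 members as non-coding that GENCODE calls protein-coding, and 3 as coding that GENCODE calls non-coding. Members with a gene on the opposite strand over them or near their start were longer than the 84 without one (median exonic length 2789 against 2190 bases). In counts per 1000 exonic bases, the median was 863.9 for non-coding and 469.1 for coding members. Single-exon genes were rare, at 5 of the 200.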
